A study of Mus musculus with 9 samples.

Results

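Solute carriers are membrane proteins that move small molecules across the cell surface and across the membranes of organelles, and the genes described here are those whose symbol has the form Slc, family number, a, member number. Of 12204 genes in the deposited table, 155 had such a symbol; 7 of them (Slc2a1, Slc16a3, Slc7a2, Slc7a11, Slc11a1, Slc40a1 and Slc25a1) were left out, and the remaining 148 genes, from 42 families, are the members. The rule uses names and no measured value. The pattern also takes in 4 genes that are no transporters, Slc9a3r1, Slc4a1ap, Slc7a6os and the pseudogene Slc2a4rg-ps, which were kept as a class of their own. All 148 passed the filter on low values and were tested.

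The members were followed in bone marrow-derived macrophages of C57/Bl6J mice in 3 groups of 3 libraries. Marrow cells were grown for 6 days with 20% supernatant of L929 cells, a fibroblast line whose medium carries the growth factor M-CSF. The group UT was left untreated, the group LPS received 10 ng/ml lipopolysaccharide, the bacterial ligand of a Toll-like receptor, for 4 h, and the group LPS + BMS received 50 µM BMS303141, an inhibitor of ATP-citrate lyase, for 1 h before the same LPS. The labels give no group with the inhibitor alone, name no vehicle and do not state how the mice or cultures map to the libraries of a group. The p-values therefore rest on the library-to-library spread, part of which may be technical.

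Solute carriers set what a macrophage can take up, export or keep in its lysosomes, Golgi and mitochondria. Some work as exchangers that trade one solute for another, some are driven by sodium or proton gradients, and a few, such as the amino acid exchangers of family 7, need a partner glycoprotein to reach the surface. Activated macrophages are known for high use of glucose and arginine and for withholding iron and zinc from microbes, and mitochondrial carriers of the Slc25 family link the citric acid cycle with the citrate that ATP-citrate lyase splits in the cytosol into acetyl-CoA and oxaloacetate.

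Levels are log2 CPM (read counts scaled to library size), quantile-normalised across the libraries, from reads of transcript 3′ ends; they are not per length, so levels of different genes are given only as 3′ read levels. Estimated depth ran from 1.83 M (mega) reads in LPS replicate 1 to 5.11 M in UT replicate 1, and the LPS libraries were shallower than the UT libraries. All 10 macrophage markers were listed, with a summed level of 11400 to 11850 CPM in UT, 6147 to 6250 in LPS and 5772 to 5963 in LPS + BMS. Single markers differed from this sum. Cd14 went up, from 7.16, 7.25 and 6.71 log2 CPM in UT to 7.86, 9.38 and 9.28 in LPS. Adgre1 overlapped between these groups, at 7.29, 7.37 and 7.44 against 7.18, 7.57 and 7.55. For the rest of the 10, every LPS library lay below every UT library. Of 8 neutrophil markers only S100a8 and S100a9 were listed, at 7.81 to 29.6 CPM summed in UT, 33.9 to 60.9 in LPS and 172 to 264 in LPS + BMS, and none of the 4 erythroid markers was. Hdc, the only listed marker of 5 for mast cells and an enzyme macrophages can also make, stood at 2.21 to 2.59 CPM in UT. It stood at 106 to 117.5 in LPS and 60.5 to 77.2 in LPS + BMS. Itgax, the only listed marker of 5 for dendritic cells, stood at 3.05 to 4.19 in UT. Its levels were 13.5 to 22.5 in LPS and 4.77 to 5.36 in LPS + BMS. The part of these markers in the results was not tested. In bulk RNA, fewer cells of a type and less RNA per cell cannot be told apart. The members' mean level over the 9 libraries ran from -0.90 to 8.35 log2 CPM with a median of 3.53, beside 3.81 for all tested genes, and 69 members lay at or above that median.

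The 250 bases before the annotated start are shown for 4 members: Slc2a6 and Slc43a2, which had the largest rise and the largest fall with LPS by the rule for named genes, Slc37a2, which fell almost as far as Slc43a2, and Slc28a2, which had the largest called change with BMS303141. The sequences are from RefSeq (GRCm38.p6) and run 5′ to 3′ on the gene's strand, ending next to the start. They lie at chr2:27027999-27028248 on the minus strand (Slc2a6), chr11:75531444-75531693 on the plus strand (Slc43a2), chr9:37255739-37255988 on the minus strand (Slc37a2) and chr2:122426185-122426434 on the plus strand (Slc28a2). Capitals mark matches, on either strand, to 4 short patterns: GGG, any 5 bases and CC, a loose form of the NF-kB site; TGCNCNC, the core of the metal response element; TGATGNAAN, the amino acid response (CHOP-ATF4) element; and TGACNNNGC, the antioxidant response element.
Slc2a6: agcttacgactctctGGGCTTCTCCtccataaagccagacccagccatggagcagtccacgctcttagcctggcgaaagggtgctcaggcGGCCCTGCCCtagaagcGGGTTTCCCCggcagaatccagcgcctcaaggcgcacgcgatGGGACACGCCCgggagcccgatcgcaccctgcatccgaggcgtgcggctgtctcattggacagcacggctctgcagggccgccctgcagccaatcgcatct
Slc43a2: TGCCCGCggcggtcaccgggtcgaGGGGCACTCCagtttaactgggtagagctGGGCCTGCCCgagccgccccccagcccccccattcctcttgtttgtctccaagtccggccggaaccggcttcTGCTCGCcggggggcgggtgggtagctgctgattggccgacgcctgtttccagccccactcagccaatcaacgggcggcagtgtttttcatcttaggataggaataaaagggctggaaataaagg
Slc37a2: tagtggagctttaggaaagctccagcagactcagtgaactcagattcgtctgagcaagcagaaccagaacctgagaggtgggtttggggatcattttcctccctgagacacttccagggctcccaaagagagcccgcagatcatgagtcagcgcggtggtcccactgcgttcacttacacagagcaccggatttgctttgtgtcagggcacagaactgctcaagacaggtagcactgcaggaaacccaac
Slc28a2: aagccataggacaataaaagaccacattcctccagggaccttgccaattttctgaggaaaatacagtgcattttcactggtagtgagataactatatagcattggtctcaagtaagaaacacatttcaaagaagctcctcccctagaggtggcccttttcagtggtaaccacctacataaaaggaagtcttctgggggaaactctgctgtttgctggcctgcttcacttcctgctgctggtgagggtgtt
The Slc2a6 stretch held 5 matches to the NF-kB pattern, a pair of which overlap, and none to the others. The Slc43a2 stretch held 2 matches to the NF-kB pattern and 2 to the metal response core. The stretches of Slc37a2 and Slc28a2 held no match, which says only that these letters are not in this window. A match is a description of letters, not a site in use.

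The first comparison, LPS against UT, shows what stimulation did to the members. Of the 148, 37 rose and 44 fell (limma, adjusted p under 0.05 over all tested genes). The 81 called members are 54.7% of the members, beside 47.0% of all tested genes; the 37 higher compare with a background of 21.5% and the 44 lower with 25.4%. Of all genes 27.1% were called with a change of at least 2-fold, and so were 55 members (37.2%). The libraries of the 2 groups did not overlap for 93 members (62.8%), beside 52.6% of all genes. The median difference was -0.25 for the members and -0.06 for all tested genes, and the median size of a difference without its sign was 0.81 against 0.60. Centring on ribosomal protein genes moved the median of all genes to 0.06 and gave 40 members higher and 38 lower. Since so much of the transcriptome changed, a count of called members is read here against these background shares, and no share near its background is a result about the members.

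By substrate class, both directions were present in every class with more than 5 genes, as the plot of differences by class shows. Of 26 amino acid and peptide carriers, 10 rose and 10 fell. Of 8 sugar carriers, 1 rose and 5 fell. Of 23 metal carriers, 9 rose and 5 fell. Among the 31 Slc25 genes, classed as mitochondrial carriers, 5 rose, 9 fell and 17 were not called. The class medians were -0.23, -1.05, 0.12 and -0.14 log2, and none changed sign under the other scalings or without LPS replicate 1. Without that library the medians were -0.06, -1.28, 0.24 and -0.02, and with ribosomal protein centring -0.12, -0.93, 0.24 and -0.02.

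**Figure D1:**
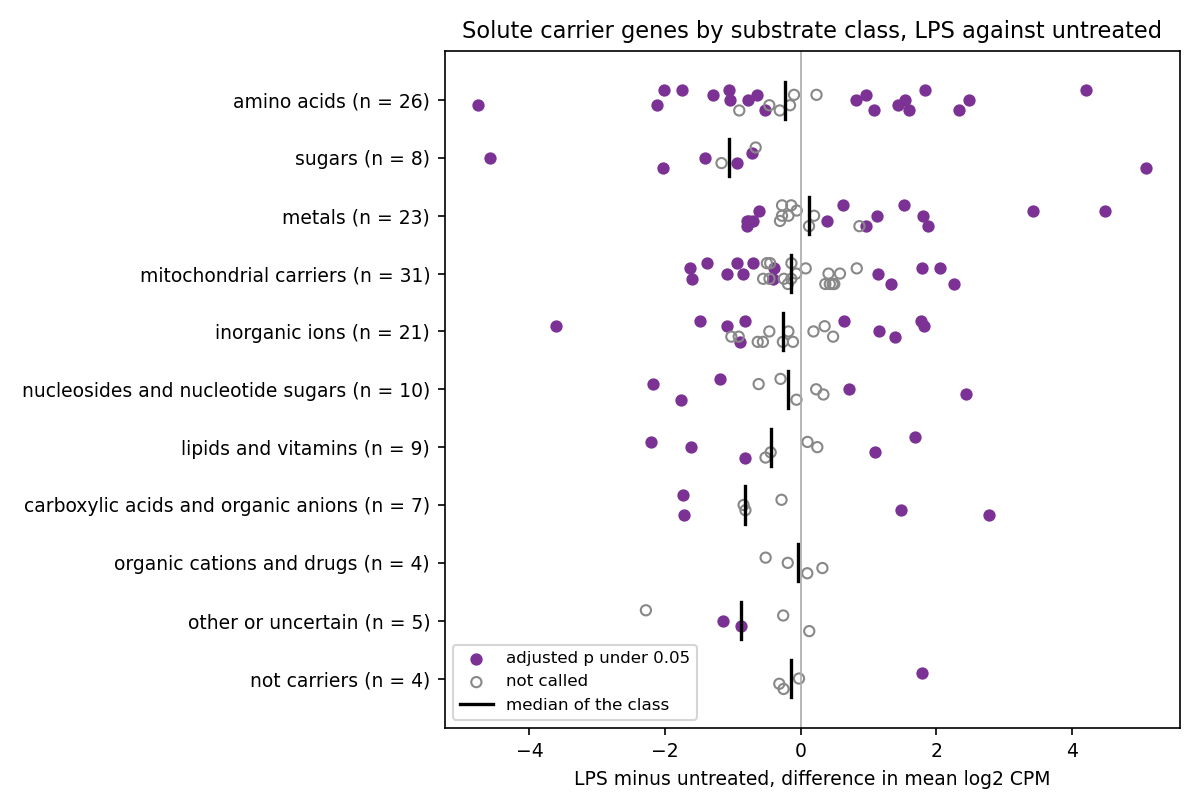
Difference in mean log2 CPM between LPS and untreated macrophages (horizontal axis) for each of the 148 genes, a point each, by substrate class. Filled points have an adjusted p under 0.05 (limma), open points do not, and the black bar is the class median; the sugar carriers have the lowest median, -1.05, and the metal carriers the highest, 0.12.

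Among amino acid carriers the largest change was a fall. Slc43a2 (ENSMUSG00000038178, chr11:75531694-75577575), an exporter of branched-chain amino acids, phenylalanine and methionine, read 9.32, 9.33 and 9.41 log2 CPM in UT, 4.49, 4.63 and 4.67 in LPS, and 4.59, 4.56 and 4.49 in LPS + BMS. It was the second most abundant member in UT by 3′ read level and fell 27.0-fold with LPS, a log2 difference of -4.76 (SE 0.11, adjusted p = 4.76e-12). The 3 UT libraries lay within 0.1 of each other and far above all 6 others.

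Some other carriers of cationic and large neutral amino acids, substrates shared in part with Slc43a2, rose with LPS. Slc7a1, which takes up arginine and lysine, read 3.73, 3.75 and 3.64 in UT and 5.77, 6.00 and 6.36 in LPS, a rise of 2.34 (SE 0.16, adjusted p = 4.53e-08). Slc7a5, the leucine exchanger also known as LAT1, read 1.67, 1.49 and 1.82 in UT and 3.71, 4.23 and 4.50 in LPS (2.48, SE 0.25, adjusted p = 2.92e-06). In both genes every LPS library was above every UT library. Slc3a2, the CD98 heavy chain that brings Slc7a5 and Slc7a7 to the surface, rose by 1.08 (SE 0.24, adjusted p = 0.00235), from 5.27 ± 0.30 to 6.35 ± 0.57 (SD, n = 3). Slc7a7, which exchanges cationic for neutral amino acids, rose by 1.83 (SE 0.37, adjusted p = 0.00111), and its LPS libraries spread from 2.68 to 4.30, the lowest being the shallow replicate 1. Of the 6 members from family 7, which do not include the left-out Slc7a2 and Slc7a11, 3 rose, 1 fell and 2 were not called. The member that fell was Slc7a4, which read 2.95, 2.68 and 2.82 in UT and 0.77, 0.45 and 0.88 in LPS. About 2 to 5 reads lie behind each of these LPS values. The Slc7a4 call ended without UT replicate 1, 2 or 3, without LPS replicate 2 or 3, and with no mean trend. The uncalled pair were Slc7a8, an exchanger of neutral amino acids (-0.31, SE 0.40, adjusted p = 0.561), and Slc7a6, an exchanger of cationic for neutral ones (0.23, SE 0.43, adjusted p = 0.687). Slc16a10, a carrier of aromatic amino acids, rose from 6.55 ± 0.20 to 7.51 ± 0.06 (0.96, SE 0.12).

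Of 6 Slc38 genes, a family that carries glutamine and other neutral amino acids, 1 rose and 3 fell. Slc38a1, a sodium-coupled glutamine importer, read 5.62, 5.22 and 5.29 in UT and 4.23, 4.28 and 4.46 in LPS, a fall of 1.05 on the log2 scale (SE 0.15, adjusted p = 9.11e-05). Its relative Slc38a2 differed by -0.16 (SE 0.14, adjusted p = 0.399) and the exchanger Slc1a5 by -0.46 (SE 0.28, adjusted p = 0.193), and in both the groups overlapped. Slc38a6 was the family member that rose (0.82, SE 0.26, adjusted p = 0.0183), a call that ended without UT replicate 2 or LPS replicate 3. Slc6a6, the taurine transporter and the most abundant member in UT after Slc37a2 and Slc43a2, read 8.59, 8.60 and 8.47 in UT and 7.01, 7.53 and 7.26 in LPS (-1.29, SE 0.13, adjusted p = 2.93e-06). Slc6a8, the creatine transporter, read 6.57, 6.63 and 6.34 against 4.56, 4.78 and 4.97 (-1.74, SE 0.14, adjusted p = 4.15e-07). No LPS library of Slc38a1, Slc6a6 or Slc6a8 reached the lowest UT library.

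Carriers of the lysosomal membrane were split. Slc15a3, a proton-coupled histidine and peptide carrier of endolysosomes, read 7.23, 7.50 and 7.68 in UT and 9.22, 8.61 and 8.88 in LPS (1.43, SE 0.15, adjusted p = 4.1e-06), which made it the most abundant member in LPS. Its relative Slc15a4, which works in the same compartment and serves as a scaffold in Toll-like receptor signalling, read 7.02, 6.91 and 6.90 against 5.98, 6.16 and 6.36 (-0.78, SE 0.13, adjusted p = 0.000249). The groups did not overlap in either gene, in opposite directions. Slc38a9, the lysosomal arginine sensor upstream of the kinase mTORC1, fell from 4.70 ± 0.11 to 2.68 ± 0.62, and Slc36a1, a proton-coupled amino acid carrier of the same membrane, from 3.86 ± 0.31 to 2.81 ± 0.27. Slc1a2, a glutamate importer, read -1.97, -0.79 and -2.33 in UT and 2.20, 2.94 and 2.38 in LPS; since about 0 to 2 reads lie behind each UT value, no fold is given.

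The sugar carriers held the steepest rise and the second steepest fall of the named members. Slc2a6 (ENSMUSG00000036067, chr2:27021363-27027998), a glucose transporter family member of lysosomes, read 0.67, 0.85 and 0.34 in UT, 5.21, 6.12 and 5.82 in LPS, and 5.63, 5.79 and 5.52 in LPS + BMS. It rose 34.2-fold, a log2 difference of 5.10 (SE 0.24, adjusted p = 1.11e-09); the UT values rest on about 9, 8 and 4 reads, so the fold is less precise than the SE on the log scale shows. Slc37a2 (ENSMUSG00000032122, chr9:37227585-37255738), an antiporter of glucose-6-phosphate and phosphate in the endoplasmic reticulum, read 9.31, 9.45 and 9.51 in UT and 4.99, 4.94 and 4.61 in LPS. This most abundant member of UT fell 23.9-fold (-4.58, SE 0.13, adjusted p = 1.56e-11). The UT libraries stood apart from the other 6 in both genes. Slc5a3, the sodium-coupled importer of myo-inositol, fell from 5.30 ± 0.28 to 3.90 ± 0.33 (-1.40, SE 0.20), and Slc45a4 fell from 3.11 ± 0.21 to 1.07 ± 0.27 (-2.04, SE 0.39). Slc5a3 shares its strand and part of its span with Mrps6, and reads of the pair can be hard to assign.

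**Figure D2:**
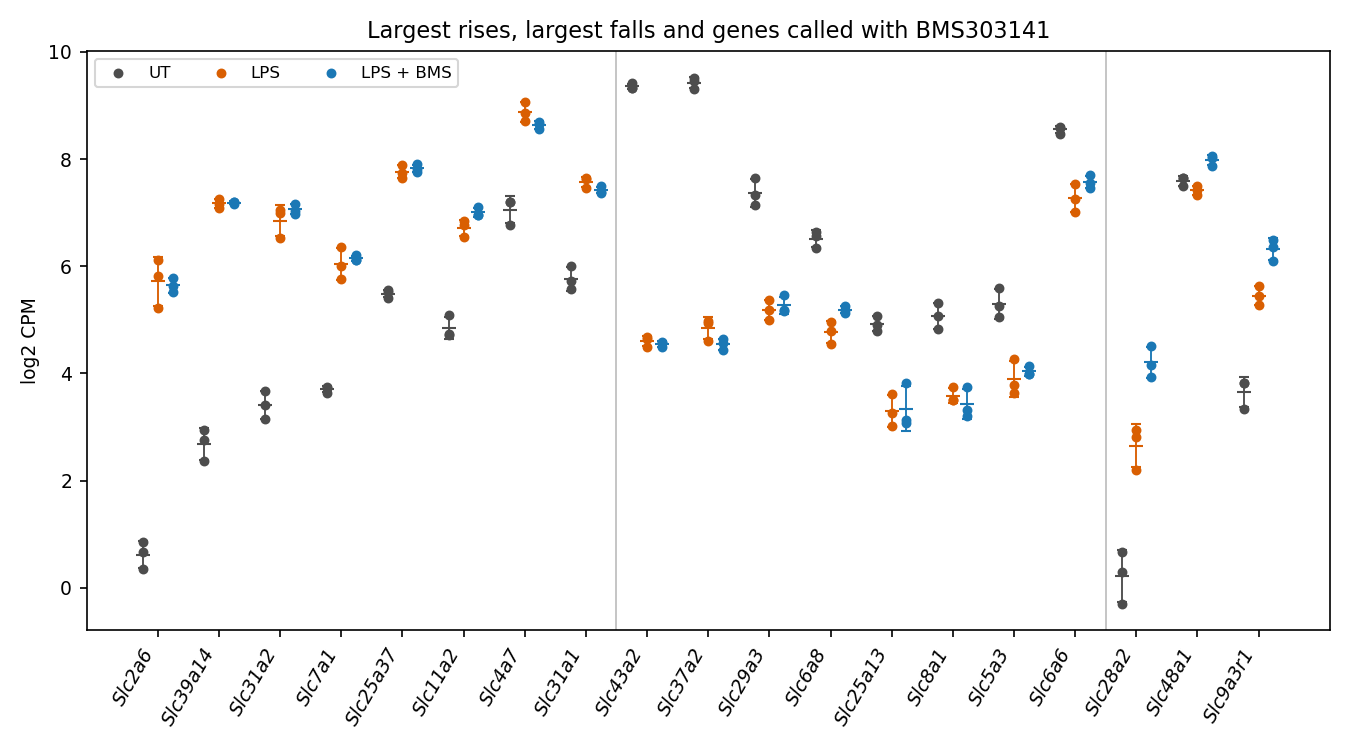
Log2 CPM (vertical axis) of each library, a point each, for the 8 largest rises with LPS, the 8 largest falls and the 3 genes called with BMS303141, with group mean and SD. Rises and falls were taken from called members without overlap whose mean level reached the median of all tested genes. Slc2a6, Slc39a14, Slc43a2 and Slc37a2 moved by over 4 log2 units with LPS, and the LPS + BMS points of these 4 genes lie close to the LPS points.

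Of the 9 metal carriers that rose, those with the largest changes carry copper, iron or zinc. Slc39a14 (ENSMUSG00000022094, chr14:70303469-70351425), an importer of zinc that also carries iron and manganese, read 2.36, 2.95 and 2.75 in UT and 7.10, 7.26 and 7.17 in LPS, a 22.4-fold rise (4.49, SE 0.15, adjusted p = 5.47e-11). Slc11a2, the proton-coupled importer of ferrous iron, read 5.08, 4.74 and 4.72 against 6.55, 6.77 and 6.84 (1.88, SE 0.14, adjusted p = 1.03e-07). Both groups were tight and far apart in each gene. Slc39a8, the close relative of Slc39a14 and likewise an importer of zinc, iron and manganese, was not called; it read 1.93, 2.43 and 2.54 in UT and 1.48, 2.65 and 1.96 in LPS (-0.28, SE 0.38, adjusted p = 0.586). The copper carriers are neighbours on chromosome 4 and both rose. Slc31a1, the high-affinity copper importer, read 5.72, 5.57 and 6.00 in UT and 7.64, 7.46 and 7.62 in LPS (1.81, SE 0.12, adjusted p = 6.18e-08). Slc31a2, a copper transporter mostly of internal membranes, read 3.67, 3.15 and 3.42 against 6.52, 7.04 and 6.99 (3.43, SE 0.17, adjusted p = 2.16e-09). Slc31a2 started lower and its rise was the larger, so the LPS levels of the pair lay within 1 log2 unit.

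The zinc families did not move as blocks. Among 10 Slc39 genes, which bring zinc into the cytosol, 2 rose and 3 fell; besides Slc39a14, Slc39a1 rose by 0.63 (SE 0.12, adjusted p = 0.000962), while Slc39a10 differed by -0.80 (SE 0.21, adjusted p = 0.00647) and Slc39a11 by -0.80 (SE 0.14, adjusted p = 0.000338). Among 6 Slc30 genes, which move zinc out of the cytosol, 4 rose and 1 fell. Those that rose included the vesicle and Golgi carriers Slc30a4 (1.13, SE 0.27), Slc30a7 (0.96, SE 0.24) and Slc30a6 (1.52, SE 0.47), whose call ended without UT replicate 3, LPS replicate 2 or LPS replicate 3. The gene that fell was Slc30a1, the zinc exporter of the surface membrane, which read 3.98, 4.39 and 4.37 in UT and 3.51, 3.64 and 3.50 in LPS (-0.70, SE 0.19, adjusted p = 0.00754). Its groups did not overlap.

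The class of mitochondrial carriers is the Slc25 family, most of which sit in the inner membrane and exchange metabolites with the cytosol. It also holds Slc25a17, a carrier of peroxisomes that is among those that rose, and Slc25a46, a protein of the outer mitochondrial membrane. In this class 17 of 31 were not called. Slc25a37, or mitoferrin 1, which imports iron into mitochondria, read 5.52, 5.55 and 5.41 in UT and 7.89, 7.65 and 7.74 in LPS (2.27, SE 0.11, adjusted p = 1.55e-09). Slc25a25, a calcium-regulated carrier of ATP-magnesium and phosphate, rose by 1.79 (SE 0.17, adjusted p = 1.42e-06), and the pyrimidine nucleotide carrier Slc25a33 by 2.06 (SE 0.28, adjusted p = 3.92e-05). The dicarboxylate carrier Slc25a10, which exports malate and succinate for phosphate, read 2.76, 2.68 and 3.11 in UT and 3.82, 4.26 and 4.50 in LPS (1.34, SE 0.24, adjusted p = 0.000481). All UT libraries of these 4 genes lay below all LPS libraries.

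Of the 9 mitochondrial carriers that fell, 5 are described here, Slc25a4 among them. Slc25a13, an aspartate-glutamate exchanger, read 4.80, 5.08 and 4.90 in UT and 3.02, 3.61 and 3.27 in LPS (-1.62, SE 0.24, adjusted p = 8e-05). Slc25a39, needed for mitochondrial glutathione import, fell by 1.08 (SE 0.15, adjusted p = 6.12e-05), and the NAD carrier Slc25a51 by 0.94 (SE 0.17, adjusted p = 0.000437). The oxoglutarate-malate carrier Slc25a11 differed by only -0.41 (SE 0.14, adjusted p = 0.0314), and its call ended without UT replicate 2, UT replicate 3 or LPS replicate 1, and also with no mean trend, with only the 2 groups fitted and with ribosomal protein centring. Some carriers of basic mitochondrial metabolism moved little. The phosphate carrier Slc25a3 differed by -0.14 (SE 0.15, adjusted p = 0.481), the ADP/ATP carrier Slc25a4 by -0.40 (SE 0.15, adjusted p = 0.046, and up to 0.209 when a library other than UT replicate 3 was left out; the call also ended with a replicate block, no mean trend, only the 2 groups fitted or ribosomal protein centring), and the carnitine-acylcarnitine carrier Slc25a20 by -0.14 (SE 0.26, adjusted p = 0.698). Slc25a5, another ADP/ATP carrier, has near-identical copies in the genome, so its 3.22 ± 0.66 in UT and 4.04 ± 0.63 in LPS are uncertain.

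Among 21 carriers of inorganic ions, 5 rose and 5 fell. Slc4a7, a sodium-bicarbonate cotransporter that holds cytosolic pH while phagosomes acidify, read 6.77, 7.19 and 7.20 in UT and 9.06, 8.70 and 8.87 in LPS (1.82, SE 0.13, adjusted p = 1.05e-07) and was the second most abundant member in LPS. Slc20a1, a sodium-coupled phosphate importer, rose from 4.96 ± 0.25 to 6.74 ± 0.28, and the potassium-chloride cotransporter Slc12a4 from 5.19 ± 0.42 to 6.58 ± 0.17. Slc8a1, the sodium-calcium exchanger, read 4.83, 5.31 and 5.07 in UT and 3.51, 3.75 and 3.50 in LPS (-1.48, SE 0.20, adjusted p = 4.81e-05). Slc26a11, an anion exchanger, fell from 3.67 ± 0.32 to 0.05 ± 0.87, where about 1 to 4 reads lie behind each LPS value.

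Of 10 nucleoside and nucleotide-sugar carriers, 2 rose and 3 fell. Slc29a3, the nucleoside carrier of lysosomes, read 7.14, 7.32 and 7.65 in UT and 5.37, 4.99 and 5.19 in LPS, a 4.54-fold fall (-2.18, SE 0.16, adjusted p = 1.05e-07). Slc28a2, a sodium-coupled importer of purine nucleosides, rose from 0.22 ± 0.49 to 2.65 ± 0.40 (2.43, SE 0.33, adjusted p = 4.39e-05), with about 2 to 7 reads behind each UT value. The surface nucleoside carrier Slc29a1 rose by 0.71 (SE 0.24, adjusted p = 0.0275), a call that ended without UT replicate 2, LPS replicate 2 or LPS replicate 3 and with only the 2 groups fitted, and the Golgi carrier of CMP-sialic acid, Slc35a1, fell by 1.19 (SE 0.30, adjusted p = 0.00548).

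Lipid and vitamin carriers were 9, of which 2 rose and 3 fell. Slc44a1, a choline carrier, read 5.78, 6.04 and 6.04 in UT and 7.71, 7.64 and 7.56 in LPS (1.68, SE 0.11, adjusted p = 3.28e-08), and Slc23a2, a vitamin C importer, rose from 4.81 ± 0.10 to 5.91 ± 0.23. Slc27a1, which promotes fatty acid uptake, fell from 3.39 ± 0.12 to 1.77 ± 0.45. Of 7 carriers of carboxylic acids and organic anions, 2 rose and 2 fell. Slc16a1, the lactate and pyruvate carrier MCT1, read 2.58, 2.74 and 3.26 in UT and 4.62, 4.35 and 4.07 in LPS (1.49, SE 0.21, adjusted p = 7.36e-05), and Slc13a3, a sodium-coupled importer of succinate and other dicarboxylates, read -0.16, 0.25 and -0.30 against 2.68, 2.88 and 2.55, with about 2 to 5 reads behind each UT value. The sialic acid exporter of lysosomes, Slc17a5, fell from 4.40 ± 0.04 to 2.67 ± 0.27. Of the 4 organic cation carriers none was called (limma; 0 also at an unadjusted p under 0.05, which 53.3% of all genes passed), and of the 5 carriers of other or uncertain substrates 2 fell, Slc12a9 among them (5.73 ± 0.14 to 4.59 ± 0.35). Slc33a1, which carries acetyl-CoA into the endoplasmic reticulum, differed by -0.26 (SE 0.34, adjusted p = 0.563).

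Summing CPM over a class shows how far a few abundant genes set its total; these sums are descriptions with no test. The amino acid class summed to 1878.2 ± 14.8 CPM in UT, 1355.1 ± 32.4 in LPS and 1320.1 ± 33.0 in LPS + BMS. Without Slc43a2 the same sums were 1222.6 ± 13.5, 1330.8 ± 31.0 and 1296.7 ± 33.2, so the direction between UT and LPS turned. The sugar class fell from 780.8 ± 53.4 to 125.4 ± 12.2 CPM with LPS, and without Slc37a2 it was 92.6 ± 5.9 in UT and 96.5 ± 13.1 in LPS. Metal carriers went from 758.4 ± 27.0 to 1199.4 ± 42.4 CPM, and without Slc48a1, their most abundant gene in UT, from 564.3 ± 16.7 to 1028.1 ± 49.8. Slc48a1 was not called with LPS, so leaving it out cannot show whether a few genes set this rise. In LPS, Slc31a1 and Slc39a14 stood at 191.0 and 144.7 CPM. Their UT levels were 5.57 to 6.00 and 2.36 to 2.95 log2 CPM. Of the 23 metal carriers 9 were called higher and 5 lower. The ion class went from 588.3 to 964.7 CPM, and without Slc4a7 from 454.0 ± 37.4 to 492.0 ± 20.7. Slc37a2 and Slc43a2 together made up 23.9% of all member CPM in UT, and Slc15a3 and Slc4a7 made up 9.14% and 8.90% in LPS, while the sum over all members changed little, from 5627.7 ± 102.1 to 5310.6 ± 18.8.

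**Figure D3:**
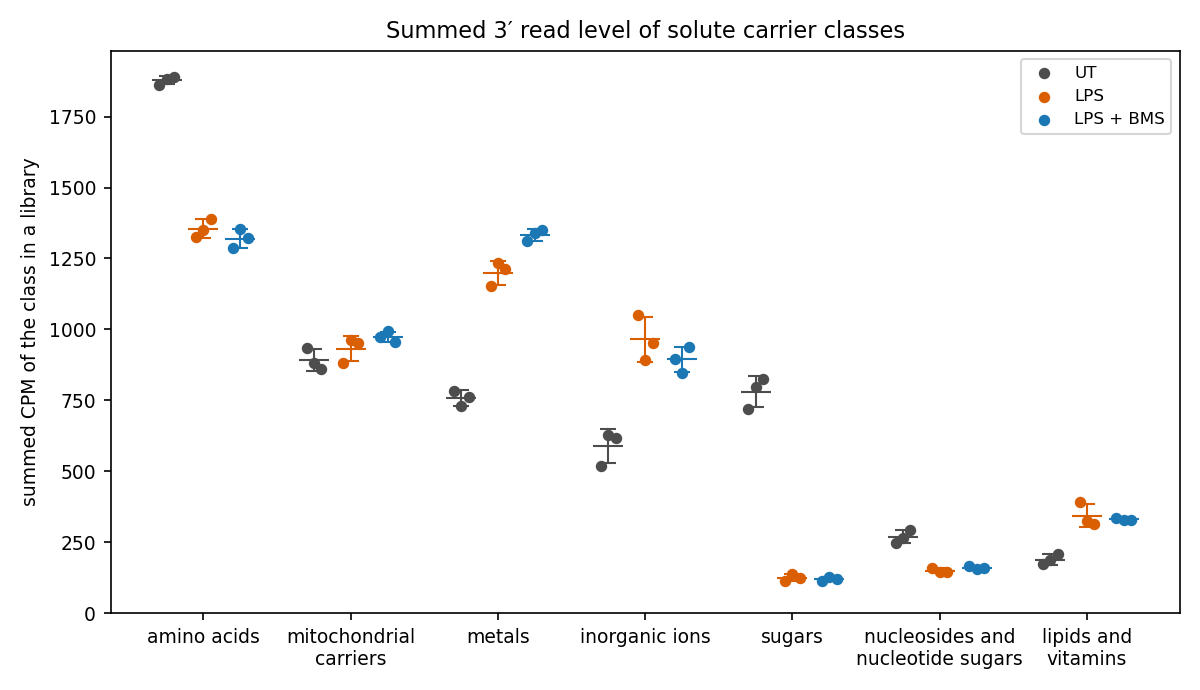
Summed CPM (vertical axis, linear from 0) of 7 substrate classes in each library, a point each, with group mean and SD. The amino acid and sugar sums are lower with LPS, the metal and ion sums are higher, and the mitochondrial sum lies between 861.7 and 992.7 CPM in all 9 libraries.

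The second comparison, LPS + BMS against LPS, asks what inhibition of ATP-citrate lyase added to LPS. Of the 148 members 3 rose and 0 fell (limma, adjusted p under 0.05). Those 3 are 2.03% of the members, beside 2.12% of all tested genes called in either direction, 0.959% called higher and 1.16% called lower, so the share is near its background. The count higher was 1 without LPS replicate 3 or without LPS + BMS replicate 1, and 0 without LPS + BMS replicate 2 or without LPS + BMS replicate 3. At an unadjusted p under 0.05, 15 members were higher and 9 lower, 16.2% in all, beside 14.9% of all genes. The groups did not overlap for 24 members (16.2%), beside 21.4% of all genes. The median difference was 0.09 for members and 0.00 for all genes, and the 95% interval of the difference lay within 1 log2 unit of 0 for 100 members (67.6%), beside 63.7% of all genes.

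Slc48a1 (ENSMUSG00000081534, chr15:97778520-97792692), which carries heme out of the phagolysosome, read 7.65, 7.49 and 7.65 in UT, 7.50, 7.42 and 7.34 in LPS, and 7.87, 8.06 and 8.02 in LPS + BMS. It rose by 0.57 with the inhibitor (SE 0.10, adjusted p = 0.0126), and it was not called between LPS and UT (-0.18, adjusted p = 0.174). All 3 LPS + BMS libraries lay above the other 6. Its gene overlaps Hdac7 on the opposite strand, and the strand setting of the counting is not given in the sources used here.

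Slc28a2, the purine nucleoside importer that rose with LPS, read 2.20, 2.94 and 2.82 in LPS and 4.52, 3.94 and 4.16 in LPS + BMS. It rose by a further 1.55 (SE 0.33, adjusted p = 0.0271), with about 7 to 21 reads behind each LPS value. Slc9a3r1, the scaffold NHERF1 and no transporter, read 3.82, 3.82 and 3.34 in UT, 5.29, 5.44 and 5.63 in LPS, and 6.09, 6.49 and 6.36 in LPS + BMS (0.86 above LPS, SE 0.17, adjusted p = 0.0204). Both genes went up with LPS and again with the inhibitor, and no library of a group overlapped another group. Each of the 3 calls ended without LPS + BMS replicate 2 and without LPS + BMS replicate 3. That of Slc48a1 also ended without LPS replicate 3 (largest adjusted p over these fits 0.0879), that of Slc28a2 without LPS replicate 1 or 3 or LPS + BMS replicate 1 (0.164), and that of Slc9a3r1 without LPS replicate 2 or LPS + BMS replicate 1 (0.112). All 3 ended when the residual spread was modelled with no mean trend, that of Slc28a2 with the replicate number as a block and that of Slc48a1 with centring on ribosomal protein genes. The neutrophil marker S100a8, which makes up most of the sum given above, read 5.90, 4.99 and 5.50 log2 CPM in LPS and 7.80, 7.42 and 8.04 in LPS + BMS. S100a9 read 0.18, 1.09 and -0.11 against 2.74, -0.06 and -0.05, so its groups overlapped, and the part of these markers in the results was not tested here.

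Some members came close to the threshold. Slc16a1 read 5.33, 5.10 and 5.18 in LPS + BMS, 0.86 above LPS (95% interval 0.40 to 1.32, adjusted p = 0.0565). Slc16a10 read 7.05, 7.14 and 6.94, a difference of -0.46 (-0.72 to -0.20, adjusted p = 0.07). The libraries of the 2 groups did not overlap in either gene. Farther from the threshold, Slc25a10 differed by -0.70 (-1.22 to -0.18, adjusted p = 0.182) and Slc33a1 by 0.48 (-0.25 to 1.20, adjusted p = 0.542). None of the 31 genes classed as mitochondrial carriers was called. The citrate carrier Slc25a1 is one of the genes left out of the members, so it is not among them.

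Among the 16 genes of the largest LPS changes at or above the median level of all tested genes, none was called with the inhibitor. Slc28a2, below that level, rose more with LPS than some of the 16 and was called with the inhibitor. The difference was 0.01 (-0.31 to 0.34) for Slc39a14, -0.05 (-0.30 to 0.19) for Slc43a2, 0.07 (-0.17 to 0.30) for Slc25a37 and 0.11 (-0.23 to 0.45) for Slc7a1. It was -0.07 (-0.58 to 0.44) for Slc2a6. In 3 of the 16 the interval did not reach 0 although the adjusted p missed the threshold: -0.30 (-0.58 to -0.01, adjusted p = 0.314) for Slc37a2, 0.30 (0.02 to 0.58, adjusted p = 0.3) for Slc6a6 and 0.42 (0.11 to 0.73, adjusted p = 0.185) for Slc6a8. The Slc6a8 libraries read 5.13, 5.25 and 5.19 in LPS + BMS, all above those of LPS. The plot of differences with BMS303141 shows these intervals beside the 3 called genes.

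**Figure D4:**
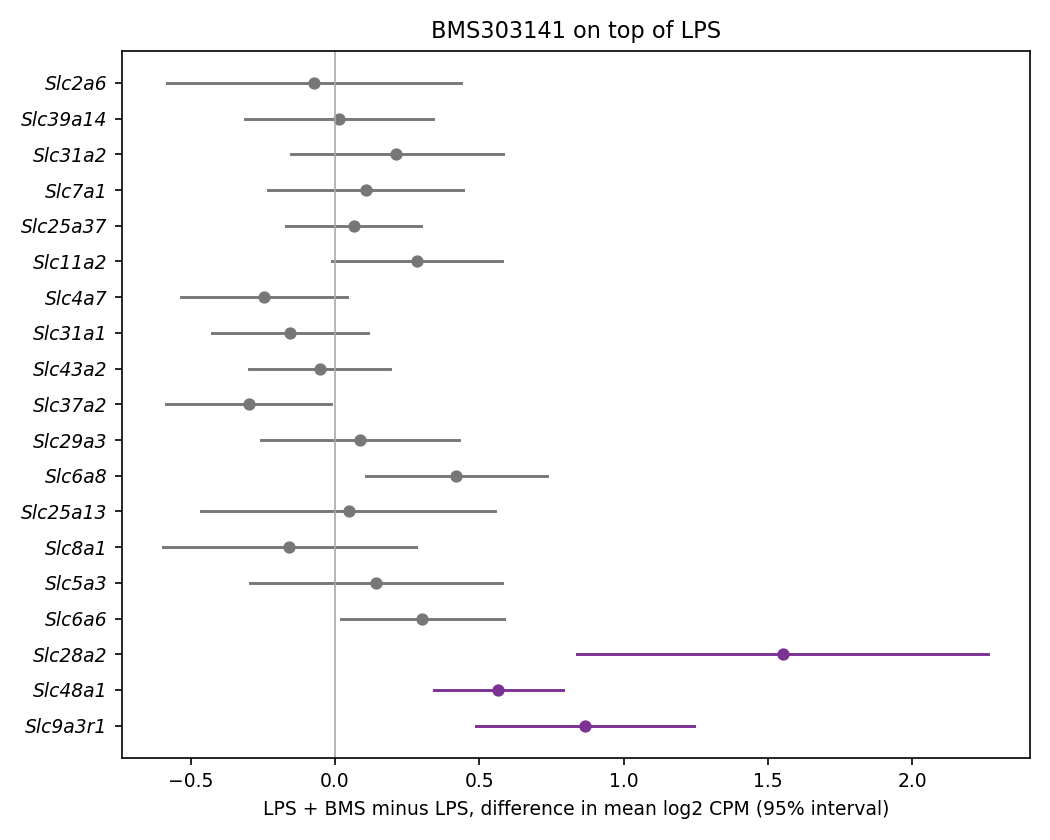
Difference in mean log2 CPM between LPS + BMS and LPS (horizontal axis), with its 95% interval from limma, for the genes of the largest LPS changes (grey) and the 3 genes called with BMS303141 (purple). The grey genes were taken from members whose mean level reached the median of all tested genes. Slc28a2, at 1.55, lies farthest from 0.

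The last comparison, LPS + BMS against UT, shares libraries with both others, so its values are set beside them only. Of the members 38 were higher and 39 lower, 52.0% in all, beside 47.1% of all tested genes (limma, adjusted p under 0.05), with 21.5% of all genes higher and 25.6% lower. Slc2a6 differed from UT by 5.03, where LPS alone gave 5.10, Slc39a14 by 4.50 beside 4.49, Slc43a2 by -4.81 beside -4.76, and Slc37a2 by -4.88 beside -4.58. Slc28a2 differed by 3.98 beside 2.43, Slc9a3r1 by 2.66 beside 1.79, and Slc16a1 by 2.35 beside 1.49. In LPS + BMS the most abundant members by 3′ read level were Slc15a3, Slc4a7 and Slc48a1, at 7.55%, 7.31% and 4.67% of the members' CPM.

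Promoter letters were compared over the 111 members with an entry in the RefSeq table, as a description with no test. The loose NF-kB pattern was present in 68.8% of the 32 members that rose with LPS, 70.6% of the 34 that fell and 64.4% of the 45 not called, beside 48.7% of the 27025 genes with a promoter entry. These 27025 include genes outside the 12196 tested, whereas every member was tested. The sets are thus unlike, and a higher share among members is no enrichment result. The metal response core TGCNCNC was in 53.1%, 55.9% and 55.6% of these sets, beside 47.2% of all. The antioxidant response pattern TGACNNNGC was in 31.2% of those that rose, 5.88% of those that fell and 26.7% of those not called, beside 11.5% of all, and the amino acid response pattern TGATGNAAN was in 3.12%, 5.88% and 0.0%, beside 3.89%. The stretches of Slc2a6 and Slc43a2 printed above both hold the NF-kB pattern, although the genes moved in opposite directions.

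Carriers and partner proteins under other names were listed for 49 of 64 genes of a list of that kind. With LPS 4 of them rose and 16 fell, with a median difference of -0.29. Of all tested genes 21.5% were called higher and 25.4% lower, with a median difference of -0.06. Slco3a1, an organic anion transporter, rose by 5.31 (SE 0.13, adjusted p = 4.76e-12), and Mfsd12, a lysosomal cysteine carrier, fell by 3.00 (SE 0.14, adjusted p = 1.56e-09). Ctns, the lysosomal cystine exporter, fell by 1.61 (SE 0.18, adjusted p = 6.81e-06), and Ucp2, a mitochondrial carrier of the Slc25 fold, by 1.43 (SE 0.14, adjusted p = 2.19e-06). With BMS303141 on top of LPS 1 of the 49 was called, beside 2.12% of all tested genes, so this count is near its background. That gene was Slco4a1, which rose by 1.09 (limma, adjusted p = 0.042).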

How the data were processed

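Messenger RNA of 9 libraries was read from its 3′ ends (QuantSeq forward kit, 100 ng of total RNA, 16 PCR cycles, per the labels' protocols). STAR 2.5.2b, featureCounts 1.5.1, limma, edgeR and the build GRCm38 are listed in the submitters' processing notes; annotation release, strand setting and gene filter are not stated in the sources at hand. The authors deposited scores on a log2 scale, read from the values themselves as log2 CPM quantile-normalised across libraries: a shift of most transcripts in 1 direction cannot be seen, and no count test could be run. Reads per value were estimated from the spacing of low values and are approximate.

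Of 12204 Ensembl identifiers 12181 matched a symbol in GENCODE M21, which also gave coordinates, and 23 did not. The 12196 genes that reached 0 log2 CPM in 3 or more libraries were fitted together with limma 3.58.1 (R 4.3.3; 3 group means, trended eBayes), and two-sided p-values were adjusted over these genes by Benjamini-Hochberg; the script was checked on simulated data. SE is the moderated standard error and ± is the SD of 3 libraries. With 3 against 3 libraries an exact permutation test of a single gene cannot go below p = 0.1, so none was run. Sums use CPM after undoing the logarithm.

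Named genes were the 8 largest rises and 8 largest falls with LPS among called members without overlap and at or above the median level, all members called with BMS303141, the most abundant and the best-supported gene of each class, and a list of known roles; Slc1a2, Slc12a4, Slc13a3, Slc16a10, Slc23a2, Slc26a11, Slc29a1, Slc35a1, Slc36a1, Slc38a6, Slc38a9, Slc45a4, Slc7a6, Slc7a7, Slc7a8, the zinc carriers Slc30a4, Slc30a6, Slc30a7, Slc39a1, Slc39a8, Slc39a10 and Slc39a11, and the Slc25 genes other than Slc25a10, Slc25a13, Slc25a20 and Slc25a37 were named after their values were seen, as were the 5 genes named from the list of carriers under other names. Slc7a4 was likewise named after its values were seen. Members and lists were chosen with earlier results of these data known. A total of 29 members overlap another listed gene, 23 on the opposite strand, Slc15a3, Slc31a1, Slc37a2 and Slc43a2 among them, and their reads may be shared. Alternatives were another filter or none, 3 scalings, a replicate block, no mean trend, 2 groups only, library weights, a 2-fold minimum and omission of each library in turn.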

Additional observations from a re-analysis of the deposited data

How the results depend on the processing

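With LPS, 65 of 81 called members kept their call in every refit that tested them. The filter of 10 CPM tested only 97 members, and 67 of the 81 calls were shared there. The 2-fold minimum is counted apart from these refits and left 55 called members. With it the count of lower members moved past 1.5 times (25), as did that of LPS + BMS against UT (24). For LPS + BMS against LPS the 3 higher members became 0 with no mean trend, 5 with library weights and 1 with a 2-fold minimum, and 0 to 4 when a library was left out: 1 without LPS replicate 3 and without LPS + BMS replicate 1, and 0 without LPS + BMS replicate 2 or 3. The 0 lower members became 3 with library weights and 0 to 1 when a library was left out. Deviations of same-numbered libraries from their group means were weakly correlated (r from -0.297 to 0.165). With 3 libraries a group, these values cannot show whether equal numbers share a mouse or culture. With the replicate number as a block, 36 members were higher and 42 lower with LPS. The counts were 2 and 0 with BMS303141 on top, and 37 and 38 for LPS + BMS against UT. The cause of these changes was not tested. No value reversed while called. Centring on ribosomal protein genes was chosen after seeing the data. LPS replicate 1, the shallowest library, limits low genes most: values near or below 0 log2 CPM rest on a few reads.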

Other observations

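Of a list of 32 ABC genes, most of which encode pumps driven by ATP and not by gradients, 31 were listed. Abce1, Abcf1, Abcf2 and Abcf3 are among these 31 but are no membrane transporters. With LPS 9 of the 31 rose and 12 fell in limma's test, with a median difference of -0.47 on the log2 scale. Abce1 (0.63) and Abcf2 (0.59) were among those that rose. Of all tested genes 21.5% were called higher and 25.4% lower, with a median difference of -0.06. Abcc1, an exporter of glutathione conjugates and leukotrienes, rose by 1.21 (SE 0.13, adjusted p = 4.68e-06), and Tap1, which loads peptides for antigen presentation, rose by 1.06 (SE 0.11, adjusted p = 3.11e-06). Abcg1, a cholesterol exporter, fell by 1.85 (SE 0.38, adjusted p = 0.00119), and Abcc3, an organic anion exporter, fell by 1.97 (SE 0.23, adjusted p = 1.07e-05). With BMS303141 on top of LPS, 2 of the 31 were higher and 1 lower, beside 2.12% of all tested genes called. Abca1, which exports cholesterol, rose by 0.76 (adjusted p = 0.0344) and Abcc5, a cyclic nucleotide exporter, by 0.88 (adjusted p = 0.00294), while Tap1 fell by 0.59 (adjusted p = 0.0133). These genes were named after their values were seen.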
